A study of Mus musculus with 12 samples.

Results

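The genes described here are 54 nucleolar factors that build ribosomes, named by symbol and found in all of the 12 deposited files; they are 54 of the 24982 genes listed there. By role they comprise 8 proteins of small nucleolar ribonucleoproteins (snoRNPs), 23 factors of the small (40S) subunit, 19 factors of the large (60S) subunit and 4 general nucleolar proteins. Polyadenylated RNA came from splenic B lymphocytes of mice at 6 weeks of age, in 3 groups of 4 biological replicates. WT mice were C57BL/J6 by the series' own spelling. Eμ-Myc mice carry a Myc transgene under the enhancer of the immunoglobulin heavy chain, active in B-lineage cells, in addition to their own Myc genes. The Eμ-Myc; PRPS2 KO mice, called the knockout group below, carry the same transgene and lack PRPS2, a phosphoribosyl pyrophosphate synthetase that feeds nucleotide synthesis. Every animal of the knockout group therefore also carried Eμ-Myc, and PRPS2 loss without the transgene was not analysed here. The strain of the transgenic mice and which mouse gave which library are not given in the sources used here. The study set out to catalogue expression programmes that Myc changes in these cells and to ask whether redox changes after PRPS2 loss meet that programme.

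Ribosomes are assembled in the nucleolus around a long precursor rRNA transcribed by RNA polymerase I. Box C/D snoRNPs (fibrillarin, NOP56, NOP58) methylate this RNA and box H/ACA snoRNPs (dyskerin, NOP10, NHP2, GAR1) turn uridines into pseudouridines, each guided by a small nucleolar RNA. The small-subunit processome, which includes the UTP-A and UTP-B complexes and the U3 snoRNP, folds and cuts the part that becomes the 40S subunit, and the PeBoW complex (PES1, BOP1, WDR12) with GTPases, helicases and placeholder proteins matures the 60S subunit. MYC is known as an activator of many of these genes in proliferating cells.

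Values were taken as mean coverage per base of a gene, a unit inferred from the values since no label or header states it, and were divided by a scaling factor for each library (scaled coverage). Levels set side by side between genes rest on that reading of the unit, while comparisons of 1 gene between libraries do not. Summed coverage per library ran from 1277305.5 to 1885768.9, while read depth per gene is not known, so errors given rest on the spread between libraries. SDs are over the 4 libraries of a group. The standard error (SE) of a log2 fold change is limma's, from the 8 libraries of its comparison, and also draws on the spread of other genes. To check the labels, Prps2 was read first and held 97.9, 139.5, 123 and 140 in WT libraries 1 to 4, 246, 199, 253 and 287 in the Eμ-Myc libraries and 18.3, 17, 17.1 and 16.2 in the knockout libraries. It was low in every knockout library and its groups did not overlap; it was the 1 gene of 12551 called in the knockout group against Eμ-Myc, with -3.79 (SE 0.13, limma adjusted p = 1.58e-05) as its log2 fold change. Myc held 270.5, 244, 226 and 346 in WT libraries 1 to 4, 1822, 1559, 2302 and 1979 in the Eμ-Myc libraries and 1099, 1718, 3017 and 3282 in the knockout libraries, so that all transgenic libraries were above all WT libraries. In Eμ-Myc against WT its log2 fold change was 2.82 (SE 0.16, limma adjusted p = 2.7e-06). The B-cell marker Cd79a, a subunit of the B-cell receptor, lay between 1239.8 and 2322 in all 12 libraries. Genes of myeloid cells were covered as well. A list of 17 summed to between 9001 and 28037 in WT and between 6108 and 17869.7 in Eμ-Myc. Among these, S100a9 alone held 3814 to 13862 in WT and 3228 to 9575 in Eμ-Myc. The list of 14 mature B-cell genes summed to between 20709.8 and 34289 in WT and between 16955 and 22404 in Eμ-Myc.

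Knockout libraries 3 and 4 stood apart, and the counts of calls in the knockout comparisons are given with and without them. The mature B-cell markers Fcer2a, at 1011 and 836 in knockout libraries 1 and 2, and Cr2, at 66 and 61.9 there, were at 3.66 and 2.66 (Fcer2a) and at 0.111 and 0.333 (Cr2) in libraries 3 and 4. The T-cell list (13 genes in the files) summed to 189 in each of these, of which Cd2 alone made 173 and 176, with 7 of the 13 genes, Cd3e among them at 0.555 and 0.666, under 1 and Themis listed at 0. Without Cd2 the other 12 genes summed to 15.3 and 13.3 there, to 612 and 687 in knockout libraries 1 and 2, to between 99.1 and 147 in Eμ-Myc and to between 496 and 2987 in WT, with WT library 4 the highest. In this bulk RNA, fewer cells of a type and less RNA per cell cannot be told apart.

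In the WT libraries the 54 genes already covered a wide range of levels. Mean scaled coverage in WT ran from 13.3 for Utp20 to 1757 for Npm1, with a median of 58.0 beside 33.0 over the 12723 genes tested in Eμ-Myc against WT. Among the roles, the snoRNP proteins had a median of 188, the large-subunit factors of 58.3 and the small-subunit factors of 38.2. In Eμ-Myc these 3 medians were 545, 141 and 88.3, in the same order. The order of single genes also changed little: across the 54 genes, Spearman's rho between the WT and Eμ-Myc means was 0.955, a description over genes that share their libraries.

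In Eμ-Myc against WT all 54 factors were higher. Each was called by limma at an adjusted p under 0.05 over all genes tested, with the largest adjusted p at 0.00865 (Noc3l), and none was lower. Of all 12723 genes tested, 30.4% were called higher in this comparison. The median log2 fold change of the 54 was 1.24, a fold of 2.36, while the median of all genes tested was -0.01. Single genes ranged from 0.56 for Noc3l to 2.03 for Gnl3. In all 54 the lowest Eμ-Myc library lay above the highest WT library, an arrangement that 28.7% of the genes tested showed. Together the 54 genes made up 0.366% to 0.469% of a WT library's summed coverage and 0.986% to 1.14% of an Eμ-Myc library's. Noc3l was not called under 2 other settings: its log2 fold change was 0.38 (limma adjusted p = 0.0785) with scaling by total coverage and 0.56 (limma adjusted p = 0.0605) with all 12 libraries in one fit.

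**Figure D1:**
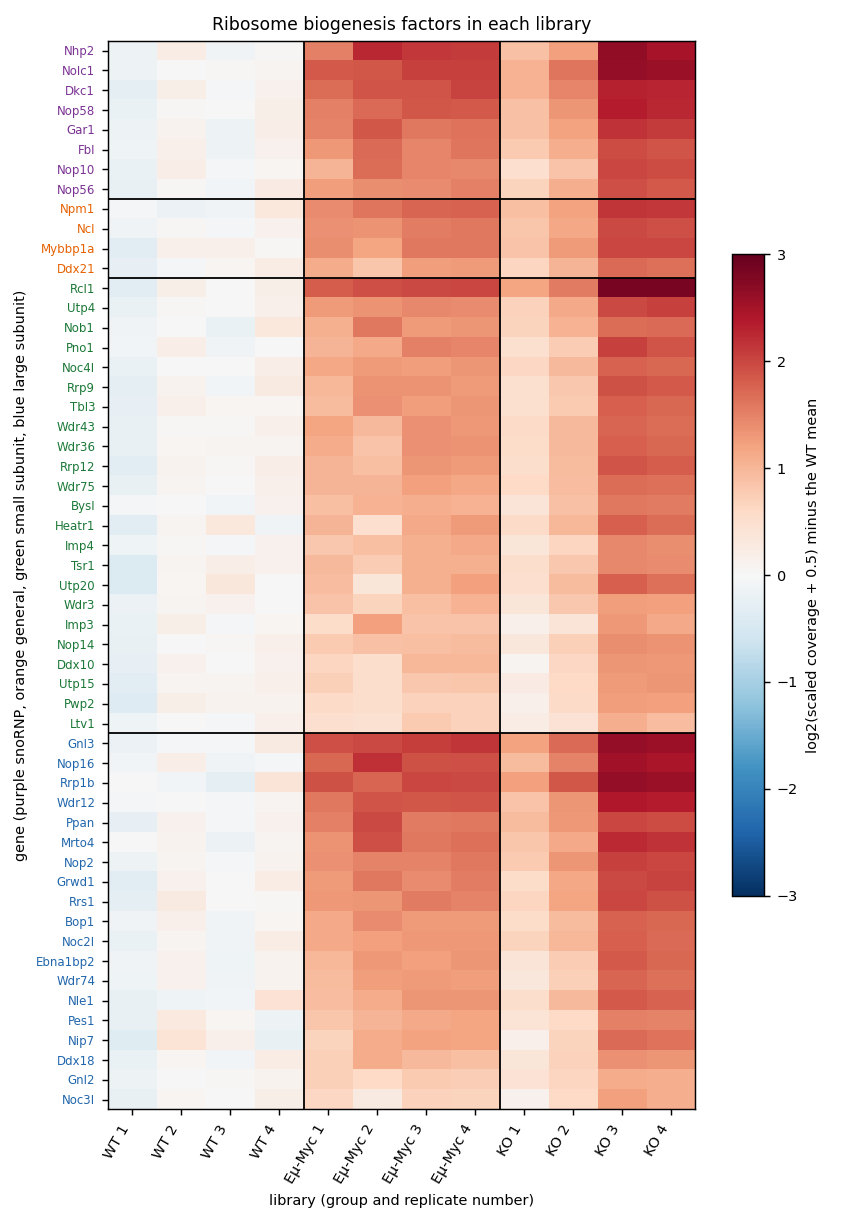
Heat map of the 54 genes (rows, grouped by role and ordered within a role by the Eμ-Myc minus WT difference) in the 12 libraries (columns). Colour shows log2(scaled coverage + 0.5) minus the mean of the 4 WT libraries; all 54 rows turn red in the Eμ-Myc columns, palest for Noc3l, and in the knockout columns libraries 3 and 4 are darker than libraries 1 and 2 in every row.

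By role, the snoRNP proteins had the largest median difference (log2 fold change 1.69, 8 of 8 called higher), without a test between roles. Fibrillarin (Fbl), the methyltransferase of box C/D particles, held 142, 173, 138 and 168 in WT libraries 1 to 4, 383, 503, 428 and 471 in the Eμ-Myc libraries and 267, 329, 606 and 576 in the knockout libraries. Its partner Nop56 held 210.4, 252, 233 and 291 in WT libraries 1 to 4, 581, 641, 652 and 701 in the Eμ-Myc libraries and 389, 518, 939 and 875 in the knockout libraries. Nop58, the other core protein of these particles, held 96.4, 113, 110 and 126 in WT libraries 1 to 4, 319, 362, 402 and 397 in the Eμ-Myc libraries and 203, 279, 567 and 536 in the knockout libraries. For each of the 3 the WT and Eμ-Myc libraries did not overlap, knockout libraries 3 and 4 were the highest of all 12, and knockout libraries 1 and 2 lay below every Eμ-Myc library but above every WT library. The log2 fold change in Eμ-Myc against WT was 1.52 (SE 0.12, limma adjusted p = 1.24e-05) for Fbl. That of Nop56 was 1.39 (SE 0.12, limma adjusted p = 1.68e-05) and that of Nop58 was 1.73 (SE 0.12, limma adjusted p = 5.07e-06).

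Among the box H/ACA proteins, dyskerin (Dkc1), the pseudouridine synthase, held 202, 277, 237 and 266 in WT libraries 1 to 4, 782, 897, 907 and 993 in the Eμ-Myc libraries and 504, 677, 1209 and 1187 in the knockout libraries. Nhp2, which contacts the guide RNA, held 234, 304, 243 and 268 in WT libraries 1 to 4, 740, 1260.2, 1129.7 and 1112 in the Eμ-Myc libraries and 483, 615, 1651 and 1460 in the knockout libraries. Eμ-Myc library 1 was the lowest of its group for both, and neither gene's WT and Eμ-Myc libraries overlapped. Nop10, the smallest core protein, held 145, 189, 159 and 173 in WT libraries 1 to 4, 338, 534, 459 and 449.7 in the Eμ-Myc libraries and 236, 299, 662 and 647 in the knockout libraries. Gar1, the subunit that joins last, held 53.6, 63.6, 53.7 and 68.3 in WT libraries 1 to 4, 169, 219, 179 and 186 in the Eμ-Myc libraries and 109.6, 138, 270.1 and 258 in the knockout libraries. Both were higher in each Eμ-Myc library than in any WT library, with Eμ-Myc library 2 the highest of its group. Log2 fold changes were 1.87 (SE 0.13, limma adjusted p = 4.96e-06) for Dkc1, 2.00 (SE 0.17, limma adjusted p = 1.64e-05) for Nhp2, 1.41 (SE 0.15, limma adjusted p = 5.67e-05) for Nop10 and 1.65 (SE 0.12, limma adjusted p = 7.51e-06) for Gar1.

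Nolc1 encodes Nopp140, which binds both kinds of snoRNP in the nucleolus and Cajal bodies. It held 188, 212, 214 and 222 in WT libraries 1 to 4, 742, 756, 860.3 and 861 in the Eμ-Myc libraries and 432, 631, 1293 and 1265 in the knockout libraries. The WT libraries were close to each other, the Eμ-Myc libraries did not overlap them, and its log2 fold change, 1.94 (SE 0.10, limma adjusted p = 1.73e-06), had the smallest adjusted p of the 54 genes.

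The 4 general nucleolar proteins were all called higher, with a median log2 fold change of 1.45. Nucleophosmin (Npm1), a chaperone and the most covered gene of the 54 in every group, held 1683, 1551, 1619 and 2173 in WT libraries 1 to 4, 4635, 5257, 5833 and 5946 in the Eμ-Myc libraries and 3272, 4019, 7724 and 7524 in the knockout libraries. Nucleolin (Ncl), an abundant RNA-binding protein of the nucleolus, held 164, 179.6, 168 and 193 in WT libraries 1 to 4, 456, 448, 513 and 526 in the Eμ-Myc libraries and 314, 395, 691 and 670 in the knockout libraries. In both genes the transgenic libraries were far above WT without overlap, and WT library 4 was the highest of its group. Mybbp1a, which takes part in rRNA gene transcription and processing, held 85.9, 119, 119 and 111 in WT libraries 1 to 4, 283, 247, 323 and 326 in the Eμ-Myc libraries and 196, 263, 433 and 433 in the knockout libraries. The RNA helicase gene Ddx21 held 84.5, 97.8, 104 and 116 in WT libraries 1 to 4, 217, 178, 239.6 and 242 in the Eμ-Myc libraries and 157, 203, 324 and 317 in the knockout libraries. For these too the groups WT and Eμ-Myc did not overlap, and Eμ-Myc library 2 was the lowest of its group. Log2 fold changes in Eμ-Myc against WT were 1.63 (SE 0.13, limma adjusted p = 1.34e-05) for Npm1, 1.46 (SE 0.10, limma adjusted p = 5.09e-06) for Ncl, 1.44 (SE 0.14, limma adjusted p = 3.4e-05) for Mybbp1a and 1.12 (SE 0.13, limma adjusted p = 0.000122) for Ddx21.

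The small-subunit factors rose least by median (log2 fold change 1.02, range 0.61 to 1.93, 23 of 23 called higher). Rcl1, a processome protein related to RNA cyclases, stood clear of the other 22 and held 27.2, 39.3, 34.4 and 39.4 in WT libraries 1 to 4, 124, 133, 138 and 140.4 in the Eμ-Myc libraries and 79.1, 104, 252 and 253 in the knockout libraries. Utp4, of the UTP-A complex that meets the precursor rRNA early, held 59.7, 69.8, 68.3 and 75.7 in WT libraries 1 to 4, 167, 173, 185 and 183 in the Eμ-Myc libraries and 110.3, 150.3, 269.7 and 286 in the knockout libraries. Nob1, the endonuclease that trims the end of the small-subunit rRNA, held 50.8, 55, 47.4 and 68.7 in WT libraries 1 to 4, 115, 165, 133 and 138 in the Eμ-Myc libraries and 87.7, 114, 176 and 179 in the knockout libraries. In all 3 genes the lowest Eμ-Myc library exceeded the highest WT library, and knockout libraries 3 and 4 exceeded every other library. The log2 fold change was 1.93 (SE 0.13, limma adjusted p = 4.93e-06) for Rcl1, 1.37 (SE 0.10, limma adjusted p = 6.66e-06) for Utp4 and 1.31 (SE 0.15, limma adjusted p = 8.21e-05) for Nob1.

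At the low end of this class were Ltv1, a late pre-40S factor, and Pwp2, of the UTP-B complex. Ltv1 held 52.7, 58.3, 55.4 and 64.2 in WT libraries 1 to 4, 82.3, 79.6, 98.7 and 92.5 in the Eμ-Myc libraries and 67.4, 78.2, 122 and 110.5 in the knockout libraries. Pwp2 held 19.4, 28.8, 27.1 and 27.2 in WT libraries 1 to 4, 38.2, 36.9, 41.3 and 40.9 in the Eμ-Myc libraries and 28.1, 38.2, 60.8 and 60.1 in the knockout libraries. The WT and Eμ-Myc libraries of both genes did not overlap, and knockout library 1 of Pwp2 lay within the WT range. Their log2 fold changes were 0.61 (SE 0.11, limma adjusted p = 0.00119) and 0.62 (SE 0.14, limma adjusted p = 0.00404). By complex, the median was 1.11 over the 5 UTP-A genes (Utp4, Utp15, Heatr1, Wdr43, Wdr75), 1.02 over the 4 UTP-B genes (Pwp2, Tbl3, Wdr3, Wdr36), 0.98 over the 3 proteins of the U3 particle (Rrp9, Imp3, Imp4) and 1.08 over the 6 late factors (Bysl, Ltv1, Tsr1, Pno1, Nob1, Rrp12). The other 5 processome factors (Utp20, Nop14, Noc4l, Rcl1, Ddx10) had a median of 0.90, the lowest of these medians. These complex groupings were made with the values known and carry no test.

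The large-subunit factors (median log2 fold change 1.28, 19 of 19 called higher) held both the smallest and the largest difference of the 54. Nucleostemin (Gnl3), a nucleolar GTPase, held 105, 117, 114 and 143 in WT libraries 1 to 4, 454, 470.1, 503 and 524 in the Eμ-Myc libraries and 276, 386, 739.5 and 704 in the knockout libraries. Its relative Gnl2 held 52.9, 59.4, 59.8 and 62.7 in WT libraries 1 to 4, 97.2, 88.9, 102 and 97.7 in the Eμ-Myc libraries and 79.6, 92.6, 127 and 125 in the knockout libraries. Both GTPases were higher in each Eμ-Myc library than in WT, yet the log2 fold change was 2.03 (SE 0.11, limma adjusted p = 2.5e-06) for Gnl3 and 0.71 (SE 0.09, limma adjusted p = 0.000207) for Gnl2. Nop16, a pre-60S factor, held 33.6, 41.2, 33.1 and 34.9 in WT libraries 1 to 4, 119, 163, 135 and 138 in the Eμ-Myc libraries and 69.6, 100.2, 205 and 197 in the knockout libraries. Rrp1b, the counterpart of yeast Rrp1, held 21.7, 20.7, 18.1 and 28.9 in WT libraries 1 to 4, 84.6, 75.2, 89.4 and 88.1 in the Eμ-Myc libraries and 52.5, 80.8, 140.2 and 136 in the knockout libraries. These were low in WT and several times higher in all 4 Eμ-Myc libraries, with log2 fold changes of 1.94 (SE 0.12, limma adjusted p = 3.71e-06) for Nop16 and 1.91 (SE 0.15, limma adjusted p = 8.91e-06) for Rrp1b.

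The PeBoW complex is needed to process the rRNA of the large subunit. Pes1 held 79.6, 114, 96.7 and 82.4 in WT libraries 1 to 4, 164, 188, 203 and 209 in the Eμ-Myc libraries and 122, 139, 266 and 261 in the knockout libraries. Bop1 held 55.9, 67.7, 56.2 and 62.6 in WT libraries 1 to 4, 133, 163, 148 and 147 in the Eμ-Myc libraries and 89.2, 118, 206 and 199 in the knockout libraries. Wdr12 held 51.9, 54.4, 53.4 and 57.8 in WT libraries 1 to 4, 163, 202, 198 and 202 in the Eμ-Myc libraries and 99.3, 136, 288 and 279 in the knockout libraries. The WT and Eμ-Myc libraries did not overlap for any of them, and Wdr12, the lowest of the 3 in WT, was at the level of Pes1 in Eμ-Myc. Log2 fold changes were 1.04 (SE 0.13, limma adjusted p = 0.000189) for Pes1, 1.28 (SE 0.10, limma adjusted p = 1.33e-05) for Bop1 and 1.80 (SE 0.10, limma adjusted p = 2.47e-06) for Wdr12. Noc3l, the counterpart of a yeast factor that escorts pre-60S particles, held 14.5, 17.6, 17.1 and 19.2 in WT libraries 1 to 4, 26.6, 20.5, 27.7 and 27.3 in the Eμ-Myc libraries and 18.6, 26, 40.5 and 36.7 in the knockout libraries. Its WT and Eμ-Myc libraries were close but did not overlap, and its log2 fold change was 0.56 (SE 0.14, limma adjusted p = 0.00865).

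The other 29 factors rose as well. Among large-subunit factors the log2 fold change was 1.66 for Ppan, 1.63 for Mrto4 (a stand-in for the ribosomal stalk protein), 1.48 for the rRNA methyltransferase Nop2, 1.46 for Grwd1 (a chaperone of the ribosomal protein RPL3) and 1.42 for Rrs1, and it lay between 0.93 (Ddx18) and 1.23 (Noc2l) for the remaining 6. Among small-subunit factors it ran from 0.72 (Utp15) to 1.28 (Pno1, the partner of NOB1). Of the processome helicases and scaffolds, Utp20 (0.90) and Heatr1 (0.99) had the largest standard errors of their class, 0.22 and 0.19, and Eμ-Myc library 2 was the lowest of its group for both.

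**Figure D2:**
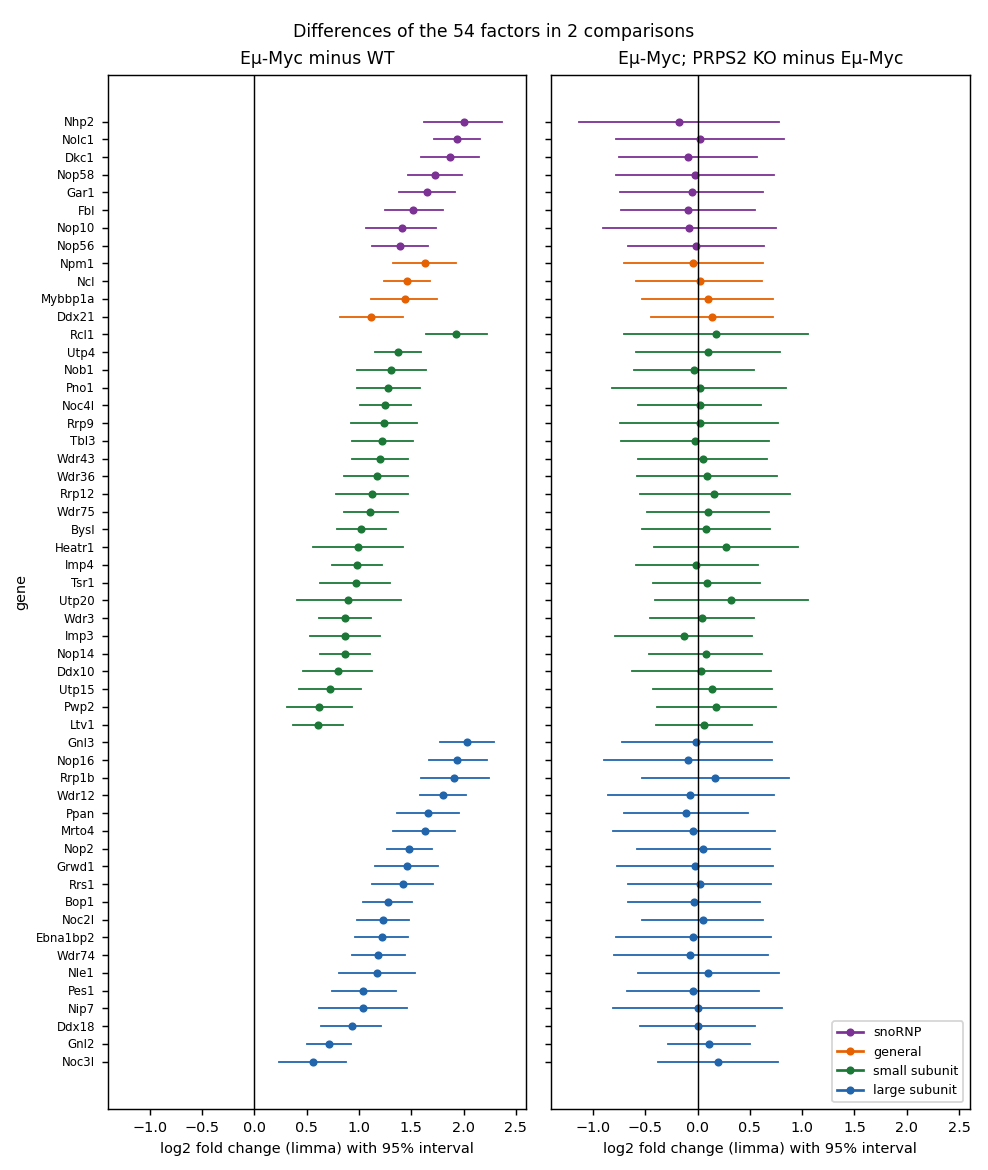
Log2 fold change of each of the 54 genes (points) with its 95% interval from limma (lines), coloured by role, for Eμ-Myc minus WT (left) and knockout group minus Eμ-Myc (right). On the left every interval lies above 0; on the right every interval spans 0 and the intervals are wider.

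Ratios of coverage between members of 1 complex within a library, which no scaling can change, are given without a test. Of those examined, only Wdr12 to Pes1 and Nop10 to Dkc1 separated WT from Eμ-Myc. Wdr12 relative to Pes1 was 0.651, 0.478, 0.552 and 0.701 in WT libraries 1 to 4 and 0.991, 1.07, 0.973 and 0.967 in the Eμ-Myc libraries. These did not overlap, and the knockout libraries (0.812, 0.978, 1.09 and 1.07) were all above WT as well. Nop10 relative to Dkc1 was 0.716, 0.681, 0.671 and 0.649 in WT and 0.432, 0.595, 0.507 and 0.453 in Eμ-Myc. It was thus lower in every Eμ-Myc library than in any WT library, and the knockout libraries (0.468, 0.443, 0.547 and 0.545) lay in the Eμ-Myc range. The other 5 ratios examined (Nop56 and Nop58 relative to Fbl, Nhp2 and Gar1 relative to Dkc1, Bop1 relative to Pes1) overlapped between WT and Eμ-Myc; Nop56 to Fbl, for instance, averaged 1.59 ± 0.142 (SD, n = 4) in WT libraries and 1.45 ± 0.119 in Eμ-Myc libraries.

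**Figure D3:**
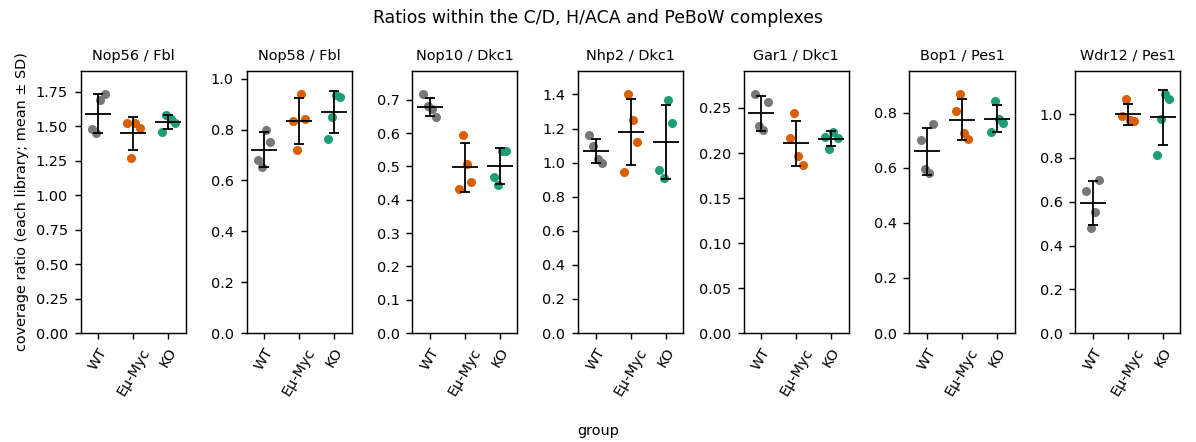
Coverage ratios within box C/D particles (relative to Fbl), box H/ACA particles (relative to Dkc1) and the PeBoW complex (relative to Pes1), by group. Points are libraries and bars are the mean ± SD of 4; the Wdr12 to Pes1 and Nop10 to Dkc1 ratios separate WT from Eμ-Myc, and the other 5 overlap.

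Genes of the same pathway outside the 54 were taken from lists by function. Of 99 other ribosome biogenesis factors, all tested, 88 were called higher and 1 lower in Eμ-Myc against WT, with a median log2 fold change of 0.78. The 3 with the largest increase were Pop1, a protein of RNase P and RNase MRP, Naf1, an assembly factor of H/ACA particles, and Tma16. Pop1 held 11.7, 14.5, 13.6 and 13.1 in WT libraries 1 to 4, 56.3, 52.2, 67.8 and 65 in the Eμ-Myc libraries and 34.7, 44.7, 102 and 98.1 in the knockout libraries; its WT and Eμ-Myc libraries were far apart and its log2 fold change came to 2.14 (SE 0.12, limma adjusted p = 2.91e-06). The log2 fold change of Naf1 was 1.75 (SE 0.15, limma adjusted p = 2.11e-05) and that of Tma16 was 1.75 (SE 0.16, limma adjusted p = 2.94e-05). At the other end stood Riok3, a kinase of pre-40S particles, at -0.36 (SE 0.13, limma adjusted p = 0.0398). Riok3 held 109, 79.4, 73.7 and 88.9 in WT libraries 1 to 4, 73, 68.7, 65.7 and 63.5 in the Eμ-Myc libraries and 77.8, 73.6, 62.3 and 57.7 in the knockout libraries. Its WT and Eμ-Myc libraries came close but did not overlap, and 7 of the alternatives, among them all 12 libraries in one fit (limma adjusted p = 0.0576) and 5 that left out 1 library, did not call it. Sbds, a cytoplasmic 60S maturation factor, and Rrp36 were not called, at -0.03 (SE 0.12, limma adjusted p = 0.843) and 0.08 (SE 0.11, limma adjusted p = 0.531).

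RNA polymerase I subunits and factors were called higher in 11 of 15 tested genes and lower in 0, with a median log2 fold change of 0.58. Of 81 tested genes for ribosomal proteins of the cytosol, 70 were called higher and 0 lower, with a median of 0.49. Both medians lay below the 1.24 of the 54 nucleolar factors, as did the 0.78 of the 99 other biogenesis factors. No test of these differences was made. The 54 and the lists were chosen with earlier results of these data known. What part that choice has in the differences was not tested. The 26 cell-cycle genes listed had a median of 2.85, all 26 called higher. Of markers of other cells, 12 of 13 T-cell genes and 10 of 10 natural killer genes were called lower, beside 24.7% of all genes tested. So were 6 of 14 mature B-cell and 2 of 17 myeloid genes, and 0 genes of these 4 lists were called higher. Of 11 immature B-cell genes 6 were higher and 2 lower, of 7 plasma-cell genes 2 were higher and 2 lower, of 11 tested erythroid genes 0 were called and of 7 tested platelet genes 2 were lower. The natural killer list summed to between 479 and 1856 in WT and 122 and 321 in Eμ-Myc. The immature B-cell list summed to between 585 and 1087 in WT and 1429 and 2144 in Eμ-Myc, where Vpreb3 made up most. Without Vpreb3 the other 10 genes summed to between 149.8 and 784 in WT and 213 and 262 in Eμ-Myc and overlapped. These genes went both ways. Il7r (46.4 to 378 in WT, 17.3 to 24.1 in Eμ-Myc) and Lef1 (58.3 to 337 and 34.2 to 41.5) were lower in Eμ-Myc. Sox4 (15.7 to 22.4 and 80.2 to 118), Rag1 (1.49 to 3.69 and 18.3 to 32.6), Rag2, Vpreb1 and Igll1 were higher there, without overlap. Dntt, Cd93 and Erg overlapped. No gene of these lists was at 0 in all libraries of a group. The part of cell division and of cell composition in the rise of the nucleolar factors was not tested.

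Because MYC with its partner MAX is known to bind the E-box CACGTG, the sequences around the start sites were read from RefSeq promoters (GRCm38.p6, 250 bases before to 50 after a start), in which 46 of the 54 genes had an entry. The letters CACGTG, which read the same on both strands, occurred once in 12 of the 46 genes (26.1%), beside 11.9% of the 9761 genes tested in Eμ-Myc against WT that are not among the 54 and 8.1% of all genes in the table. They were found in 7 of 20 small-subunit genes, 4 of 16 large-subunit genes, 1 of 3 general genes and 0 of 7 snoRNP genes. In 2 genes (Nop2 and Imp4) the match began before the start site and in 10 within the 50 bases after it. A match of letters is a description and not a site shown to be bound. The 4 of the 12 with the largest log2 fold change in Eμ-Myc against WT are shown, as examples of where the letters lie; capitals mark CACGTG. For Nop2 the whole stretch before the start site is given, and for the other 3 genes 30 bases around the match.
Nop2, chr6:125131633-125131882, plus strand: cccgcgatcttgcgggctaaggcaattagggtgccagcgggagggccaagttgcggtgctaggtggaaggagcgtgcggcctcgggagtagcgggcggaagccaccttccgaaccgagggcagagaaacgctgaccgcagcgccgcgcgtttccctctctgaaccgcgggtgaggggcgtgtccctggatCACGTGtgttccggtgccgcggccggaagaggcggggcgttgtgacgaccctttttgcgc
Grwd1, chr7:45830740-45830769, minus strand: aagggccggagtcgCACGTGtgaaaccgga
Mybbp1a, chr11:72441347-72441376, plus strand: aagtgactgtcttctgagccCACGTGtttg
Utp4, chr8:106893643-106893672, plus strand: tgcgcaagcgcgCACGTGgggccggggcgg
These genes had log2 fold changes of 1.48, 1.46, 1.44 and 1.37. The rest of the 12 ran from 0.61 (Ltv1) to 1.28 (Pno1), beside the median of 1.24 over the 54.

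The 54 genes lie on 18 chromosomes, and a feature they share beyond their proteins is that some host small nucleolar RNAs. In the GENCODE M21 annotation 8 of the 54 (14.8%) contain at least 1 snoRNA gene, beside 1.7% of the 11816 protein-coding genes tested in Eμ-Myc against WT, and the 8 hold 23 such genes in all. They are Nop56 (5), Nop58 (4), Ncl, Gnl3 and Wdr43 (3 each), Tsr1 and Ppan (2 each) and Dkc1 (1). The snoRNAs are not polyadenylated and were not measured as such. Some members share sequence with other genes, which can affect their coverage. In 24 of the 54 an exon overlaps a gene on the opposite strand, most in Tbl3 (37.3% of its exon bases, with Noxo1) and Tsr1 (32.3%, with Srr), and although the library kit keeps strand, whether the counting used it is not stated. For 9 genes (Ddx18, Ddx21, Fbl, Imp3, Mrto4, Nop56, Npm1, Pes1, Wdr12) a copy at least 95% identical over at least 200 bases exists elsewhere, and their levels are uncertain to that extent.

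Against Eμ-Myc, the knockout group showed no called change in any of the 54 genes. limma called 0 of 54 (0.00797% of all 12551 genes tested were called), and 0 of the 54 had an unadjusted p under 0.05 (121 of all genes did). No other tool was run. The median log2 fold change was 0.02, with -0.07 for the snoRNP proteins, 0.08 for the small-subunit and -0.01 for the large-subunit factors. Smallest p-values belonged to Utp20, Heatr1, Noc3l, Pwp2 and Gnl2. Utp20, a scaffold of the processome, held 25.5, 17, 28.1 and 31.5 in Eμ-Myc libraries 1 to 4 and 18.8, 25.8, 46.4 and 42.4 in the knockout libraries; its log2 fold change was 0.32 (95% interval -0.41 to 1.06, limma adjusted p = 1). Heatr1, of the UTP-A complex, held 55.6, 38.6, 59.4 and 66 against 40.2, 53.9, 94.9 and 87.4 (0.27, interval -0.42 to 0.96, limma adjusted p = 1). In both genes knockout libraries 3 and 4 lay above every Eμ-Myc library, and libraries 1 and 2 within the Eμ-Myc range. The log2 fold changes of Noc3l, Pwp2 and Gnl2 were 0.20, 0.18 and 0.11. The 95% intervals were wide: that of Gnl2 ran from -0.28 to 0.50 and that of Nhp2, which had the lowest value of the 54 (-0.18), from -1.13 to 0.78. Of the other lists, 0 of 99 further biogenesis factors, 0 of 15 polymerase I genes, 0 of 81 ribosomal protein genes and 0 of 26 cell-cycle genes were called, and 0 in each had an unadjusted limma p under 0.05.

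The mean hides a split that ran through all 54 genes. Knockout library 1 lay below all 4 Eμ-Myc libraries in 52 of the 54 genes and library 2 in 38, while library 3 lay above all 4 in 54 and library 4 in 52. Over all 12551 genes tested the same positions were taken by 37.4%, 30.2%, 37.5% and 36.8%. Libraries 3 and 4 both exceeded libraries 1 and 2 in 54 of 54, beside 46.0% of all genes. The 8 snoRNP genes showed it without exception, with libraries 1 and 2 below and libraries 3 and 4 above every Eμ-Myc library. Relative to the Eμ-Myc mean, the median log2 level of the 54 was -0.69, -0.29, 0.57 and 0.51 in knockout libraries 1 to 4, and -0.13, -0.02, 0.08 and 0.10 in the Eμ-Myc libraries. The SD between libraries on the log2 scale was larger in the knockout group than in Eμ-Myc for all 54 genes (75.6% of all genes), with a median of 0.603 against 0.154.

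Other values moved in step with this split. Myc itself was 1099, 1718, 3017 and 3282 in knockout libraries 1 to 4. The summed scaled coverage of the 26 cell-cycle genes was 3619.7, 5026, 10642 and 10544 there, and between 6218 and 8262 in Eμ-Myc. That of the 54 factors was 10071, 12965, 24825 and 23875, and between 14762 and 18215 in Eμ-Myc. The myeloid list (17 genes) went the other way, at 17166, 12468, 3187 and 1493, as did the T-cell and natural killer lists, the latter (10 genes) at 756, 572, 30.4 and 28.3. The immature B-cell list was divided: Vpreb3 was 802, 879, 1553 and 1427, and the other 10 genes summed to 289.9, 327, 199.6 and 193. Among these 10, Il7r (84.9, 99.7, 7.66 and 5.99), Lef1 (74, 85.6, 36.5 and 37.5), Rag1 and Erg were lower in libraries 3 and 4. Sox4 (50.3, 65.9, 104 and 99.4) was higher there. Igll1 (4.26, 2.7, 4.77 and 4.55) was low throughout and in libraries 3 and 4 only slightly above library 1. The rest showed no clear split. The mature B-cell list (14 genes) summed to 20168, 20064, 12209.9 and 12721 in knockout libraries 1 to 4. Within it Cd74, Cd83, Cd22 and Bank1 were lower in libraries 3 and 4 than in libraries 1 and 2 (Cd83 at 172, 159, 13.9 and 14.9), while the receptor subunit Cd79a was 1349, 1492, 1239.8 and 1337. The part of cell composition or of the Myc level in the split was not tested.

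**Figure D4:**
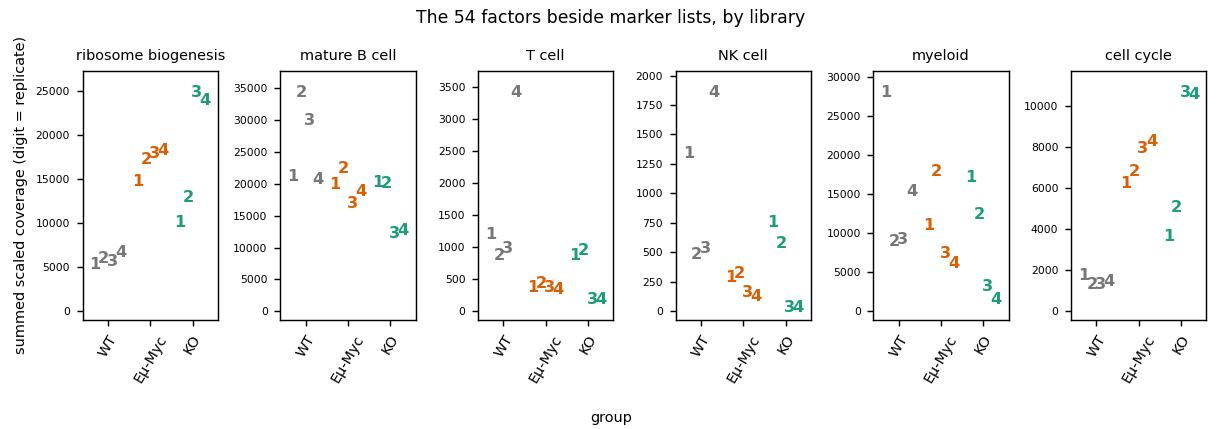
Summed scaled coverage (linear axes) of the 54 factors, of 4 cell-type marker lists and of the cell-cycle list; each digit is 1 library, placed by group and named by its replicate number. In the knockout group libraries 3 and 4 are high for the 54 factors and the cell cycle and low for the T-cell, natural killer and myeloid lists, and libraries 1 and 2 the reverse.

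The comparison with Eμ-Myc was repeated with either pair of knockout libraries left out. Without libraries 3 and 4, an alternative chosen after the data were seen, the median log2 fold change of the 54 against Eμ-Myc was -0.46, with 0 called lower and 0 called higher by limma, and 39 of the 54 at an unadjusted p under 0.05. Of all genes in that fit, 1.95% were called lower, 2.26% were called higher and 32.4% had an unadjusted p under 0.05. Of the other lists 5 of 99 further biogenesis factors, 0 of 15 polymerase I genes, 1 of 81 ribosomal protein genes and 9 of 26 cell-cycle genes were then called lower and 0 higher. Without libraries 1 and 2 the median of the 54 was 0.55, with 48 called higher, beside 12.3% of all genes. In that fit 58 of 99 further biogenesis factors, 5 of 15 polymerase I genes, 1 of 81 ribosomal protein genes and 21 of 26 cell-cycle genes were called higher and 0 lower. With limma's library quality weights, which gave knockout libraries 1 and 2 weights of 0.0817 and 0.129 and libraries 3 and 4 weights of 3.2 and 7.76, 54 of 54 were called higher, beside 31.1% of all genes. The sign of the difference between the knockout group and Eμ-Myc thus followed which libraries were kept.

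**Figure D5:**
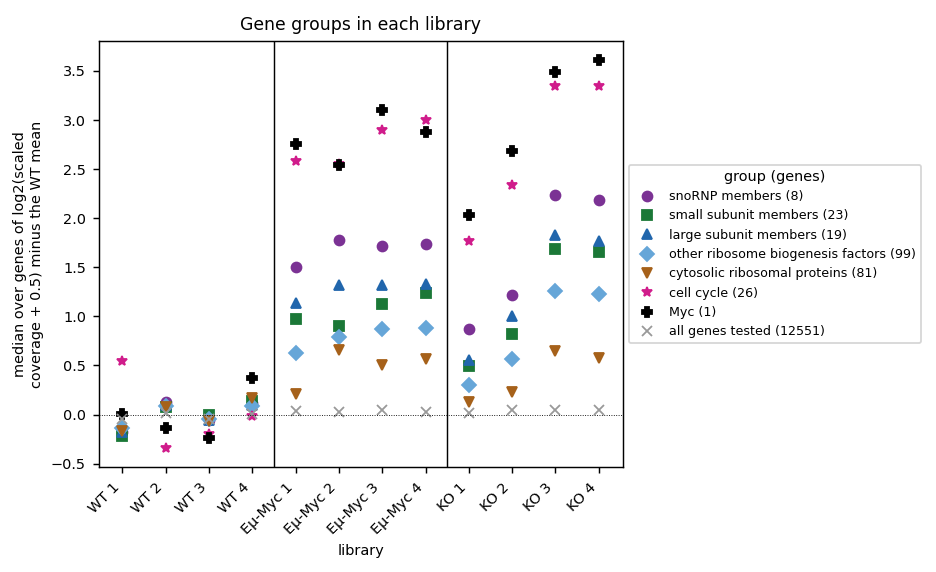
Median over the genes of each group of log2(scaled coverage + 0.5) minus the WT mean, for each library (x axis). In the knockout group the median of the snoRNP proteins is 0.87 and 1.22 in libraries 1 and 2 and 2.24 and 2.19 in libraries 3 and 4, and the cell-cycle genes and Myc split the same way.

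Against WT, the knockout group was higher in most of the factors, and this comparison shares its libraries with the 2 above. limma called 49 of 54 higher and 0 lower, beside 19.7% of all genes called higher, with a median log2 fold change of 1.27. The 4 knockout libraries lay above all WT libraries in 49 of 54 genes, an arrangement shown by 22.2% of all genes tested. All 8 snoRNP and all 4 general genes were called, with 20 of 23 small-subunit and 17 of 19 large-subunit genes. The 5 not called were Noc3l, Nip7, Pwp2, Ddx10 and Imp3, with limma adjusted p-values of 0.0518, 0.0623, 0.0548, 0.0558 and 0.0645 and log2 fold changes of 0.76, 1.03, 0.80, 0.83 and 0.74; in each, knockout library 1 reached into the WT range. The largest log2 fold changes were 2.11 (SE 0.39, limma adjusted p = 0.0142) for Rcl1, 2.08 (SE 0.32, limma adjusted p = 0.0104) for Rrp1b and 2.02 (SE 0.32, limma adjusted p = 0.0106) for Gnl3. Of the other lists, 67 of 99 further biogenesis factors, 8 of 15 polymerase I genes, 20 of 81 ribosomal protein genes and 26 of 26 cell-cycle genes were called higher. Without knockout libraries 3 and 4 these counts were 23, 3, 0 and 26, where 13 of the 81 ribosomal protein genes had an unadjusted limma p under 0.05, beside 26.7% of all genes. There the log2 fold changes of Rcl1, Rrp1b and Gnl3 were 1.38, 1.54 and 1.45, each still called.

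The adjusted p-values of this comparison lay between 0.0104 and 0.0645 for the 54 genes, and the count of calls changed with single libraries. It was 15, 12, 8 and 27 when WT libraries 1 to 4 were left out in turn, where 5.95%, 4.6%, 4.47% and 8.11% of all genes were called higher. It was 54, 49, 19 and 16 when knockout libraries 1 to 4 were, beside 29.6%, 19.7%, 5.12% and 4.66% of all genes. Without both knockout libraries 3 and 4 it was 32, beside 8.24% of all genes called higher, with a median log2 fold change of 0.77. Without both 1 and 2 it was 54, beside 35.7% of all genes, with a median of 1.77. Knockout library 1, the lowest of its group, lay above every WT library in 49 of the 54 genes and library 2 in 54, beside 27.4% and 35.1% of 12551 genes (those tested against Eμ-Myc). The direction of the median was positive in every one of these fits.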

How the data were processed

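The deposited signal of each library was mean coverage per gene, per base and to 1 decimal, a unit inferred from the values and stated by no label or header; no counts were used. The submitters' processing notes name mm10, R 4.3.3 and DESeq, with no role given. Coverage was divided by trimmed-mean scaling factors (trim 0.3 of log ratios, 0.05 of means). limma 3.58.1 (trend, robust) was run two-sided on log2(coverage + 0.5), tested on simulated data first, with each comparison fitted on its own 8 libraries. That simulation gave both groups the same spread and drew genes independently, so it does not cover the split among the knockout libraries. Genes at 1 or more in at least 4 of those libraries were tested, with Benjamini-Hochberg adjustment over all of them, and called at adjusted p under 0.05. Fold changes are on this log2(coverage + 0.5) scale and understate low genes.

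Members and gene lists were chosen with earlier results of these data known. Given by library were the snoRNP core, Npm1, Ncl, PeBoW and, in each role, the 3 largest and 2 smallest differences in Eμ-Myc against WT; in the knockout group against Eμ-Myc the 5 smallest p were named, and of other biogenesis factors the 3 largest and 3 smallest differences. Up to 4 E-box promoters were to be shown; all had 1 match, so the largest differences decided.

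The labels give only replicate numbers, and no pairing was used in the main fits. Deviations of same-numbered libraries correlated across 12956 genes at 0.638, 0.187, 0.243 and 0.596 for the knockout group with Eμ-Myc. For Eμ-Myc with WT they were 0.225, -0.0978, 0.251 and 0.128, and for the knockout group with WT 0.391, -0.408, 0.136 and -0.0624. The labels call the replicates biological without naming animals, so p-values measure the spread between these libraries. Alternatives were other scalings, filters, pseudocounts, quality weights, a joint fit, a replicate block and libraries left out.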

Additional observations from a re-analysis of the deposited data

Results flagged for a closer look

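In 7 of 168 groups of 4 libraries, 1 library lay far from the other 3 by Dixon's gap test; chance gives about 1 in 20. Utp15 was 19.6 in WT library 1 against 25.9 to 27.1 in the other WT libraries, and Wdr36 was 72.0 there against 88.4 to 89.5. Eμ-Myc library 1 held 163 for Wdr12 (others 198 to 202) and 119 for Wdr74 (others 147 to 151). Eμ-Myc library 2 held 265 for Ppan (others 191 to 199) and 20.5 for Noc3l (others 26.6 to 27.7). WT library 4 held 39.1 for Nle1, where the other WT libraries held 24.6 to 27.0.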

How the results depend on the processing

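In Eμ-Myc against WT the 54 factors had a positive log2 fold change under every alternative run, and Noc3l was the 1 factor that lost its call; the filter of 10 in every library left Utp20 untested. Scaling by total coverage moved the median of all genes to -0.19 and that of the 54 to 1.05; the share of higher among called genes was 55.2%, and 42.0% with total coverage. Sbds turned to 0.04 without WT replicate 2 and 0.02 without Eμ-Myc replicate 3, and Rrp36 to -0.10 with total coverage; neither was called. Against Eμ-Myc, quality weights called 54 factors higher in the knockout group (8 snoRNP, 23 small-subunit, 19 large-subunit, 4 general) and 7459 genes in all, where the fit without weights called 1. With those weights Myc was also called, at 0.58 (limma adjusted p = 0.0041). Leaving out knockout libraries 1 and 2, chosen after seeing the data, called 48 (6, 20, 18 and 4) and 3495 genes. Myc was among these, at 0.73 (limma adjusted p = 0.0166). In that fit the log2 fold change was 0.82 for Utp20, 0.75 for Heatr1, 0.60 for Noc3l, 0.62 for Pwp2 and 0.38 for Gnl2, each called. Leaving out libraries 3 and 4 called 0 factors and 524 genes, and the log2 fold change became -0.17 for Utp20, -0.21 for Heatr1, -0.20 for Noc3l, -0.26 for Pwp2, -0.17 for Gnl2 and -0.46 for Myc; that of Myc was -0.09 to 0.44 with single libraries left out, with -0.05 and -0.09 without knockout replicate 3 or 4. Against WT, leaving out 1 library gave 8 to 54 factors called (snoRNP 2 to 8, small-subunit 0 to 23, large-subunit 4 to 19, general 2 to 4) and 600 to 6633 genes beside 3716; leaving out libraries 3 and 4 gave 32 factors (9 small-subunit, 11 large-subunit) and 1323 genes, libraries 1 and 2 left out 8617 genes. All 12 libraries in one fit called 5975 genes and quality weights 10505. With the replicate block, 54, 0 and 44 factors were called in the 3 comparisons, and in the last 1863 genes; no other class or comparison of the factors changed by over 1.5 times. The cause was not tested for any of these. Depth is unknown, so counting error of low values could not be given.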
